A study of Homo sapiens with 8 samples.

Results

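The G1 cyclins, cyclin-dependent kinases (CDKs) and CDK inhibitors were followed here through 10 genes chosen by symbol, CCND1, CCND2, CCND3, CCNE1, CCNE2, CDK2, CDK4, CDK6, CDKN2A and CDKN1B, of the 19952 symbols measured by RNA-seq in 8 libraries. All 10 symbols were found in every library. The libraries came from the established human uveal melanoma lines 92.1 and MEL290, uveal melanoma being a tumour of the pigmented cells of the eye. In 92.1, cells carrying a short hairpin RNA against APOBEC3B (shA3B, 2 libraries), a cytidine deaminase that edits single-stranded DNA, were compared with control cells (shCtrl, 2 libraries, an empty vector in the study's methods). In MEL290, cells overexpressing full-length APOBEC3B (A3B OE, 2 libraries) were compared with control cells (NC, 2 libraries). The hairpin was carried by pGIPZ and the cDNA by pHAGE-puro, both lentiviral plasmids with puromycin selection, and the labels do not say which hairpin was used. Each line is a single established culture, and nothing in the labels says whether replicates were separate cultures, so p-values measure only the spread between these libraries.

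D-type cyclins bind CDK4 or CDK6 and E-type cyclins bind CDK2, and these kinases phosphorylate the RB protein, which releases E2F transcription factors and lets cells pass from G1 into S phase. CDKN2A encodes p16INK4a, which blocks CDK4 and CDK6, and from a separate first exon p14ARF, which acts on MDM2 and p53; CDKN1B encodes p27, which holds cyclin E-CDK2 inactive. The RB pathway and its D cyclins are commonly altered in melanocytic tumours.

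Values are FPKM, in which the fragments of a gene are scaled by its transcript length and by the depth of the library. Fold changes are differences of log2(FPKM + 1), tested with limma over all genes that reached 1 FPKM in at least 2 libraries of the fit, with Benjamini-Hochberg adjustment, and a gene was called at an adjusted p under 0.05. APOBEC3B itself stood at 36.0 and 32.3 FPKM in shCtrl and at 1.98 and 2.37 in shA3B, and at 2.67 and 2.19 in NC and 28.4 and 27.5 in A3B OE, so that every library matched its label. Depth, estimated roughly from the steps of low values, lay between about 17400000 and 32400000 fragments. The melanocyte lineage markers separated the lines: all 8 reached 1 FPKM in 92.1, where their summed level was 7116 to 8713 FPKM, whereas in MEL290 the sum was 15.2 to 20.7 FPKM, MITF alone passed 1 FPKM in NC, and TYR was listed at 0 in all 4 libraries. In bulk RNA, fewer cells of a type and less RNA per cell cannot be told apart.

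Some sequences bear on what these FPKM values hold. RefSeq promoter windows on GRCh38, from 250 bases before to 50 after a start, were matched for 6 of the 10 genes. CDKN2A has 2 annotated starts on the minus strand of chromosome 9, and both windows are shown because the files give it 1 row and do not separate the p14ARF from the p16INK4a transcripts. The study's methods name an annotation release made for an earlier genome build than its alignment, so which transcripts each row sums, and the exonic overlaps given below from GENCODE 44, may differ from those behind the FPKM. The first, chr9:21995275-21995574, surrounds the upstream start, and the second, chr9:21974808-21975107, holds the p16INK4a start codon, in capitals, 31 bases into the transcript.
CDKN2A upstream start: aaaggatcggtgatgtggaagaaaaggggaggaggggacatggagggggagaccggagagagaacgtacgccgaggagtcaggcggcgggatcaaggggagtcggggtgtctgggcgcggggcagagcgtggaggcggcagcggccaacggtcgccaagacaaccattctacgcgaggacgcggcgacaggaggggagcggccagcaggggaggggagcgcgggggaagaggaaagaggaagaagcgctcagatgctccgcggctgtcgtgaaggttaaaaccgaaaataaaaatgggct
CDKN2A downstream start: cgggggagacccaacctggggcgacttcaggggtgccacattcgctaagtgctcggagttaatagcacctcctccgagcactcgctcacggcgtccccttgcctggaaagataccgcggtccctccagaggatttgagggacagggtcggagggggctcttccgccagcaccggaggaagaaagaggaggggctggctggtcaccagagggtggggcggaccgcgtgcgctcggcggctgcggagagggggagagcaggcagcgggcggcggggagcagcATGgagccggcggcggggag
CDK4 (chr12:57752261-57752560, minus strand) and CDK6 (chr7:92836524-92836823, minus strand) encode related kinases. Their log2 fold changes between A3B OE and NC in MEL290 had opposite signs, and only that of CDK6 was called. Their windows are shown with the E-box CACGTG in capitals, a motif read by MYC and related factors.
CDK4: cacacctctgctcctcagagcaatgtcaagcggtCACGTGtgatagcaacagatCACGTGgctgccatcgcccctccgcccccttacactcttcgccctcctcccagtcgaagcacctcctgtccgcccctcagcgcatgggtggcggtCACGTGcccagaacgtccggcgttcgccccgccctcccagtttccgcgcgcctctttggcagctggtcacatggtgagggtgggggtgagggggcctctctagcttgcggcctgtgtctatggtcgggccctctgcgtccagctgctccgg
CDK6: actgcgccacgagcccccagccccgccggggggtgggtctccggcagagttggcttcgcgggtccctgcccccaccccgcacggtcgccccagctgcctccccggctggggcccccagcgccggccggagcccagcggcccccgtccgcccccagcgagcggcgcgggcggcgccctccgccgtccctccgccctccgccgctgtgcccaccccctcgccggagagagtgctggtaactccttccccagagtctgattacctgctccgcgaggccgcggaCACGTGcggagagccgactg
The E-box, which reads the same on both strands, occurred 3 times in the CDK4 window and 1 time in this CDK6 window, against 7.26% of all 35116 windows with any match, and no match in the CDK4 or CDK6 window overlapped the GC box GGGCGG. The GC box, searched on both strands, matched 3 times in each of these windows, 2 times at the downstream CDKN2A start and not at the upstream one, and 45% of all windows held it. A second CDK6 window (chr7:92833910-92834209), not printed, held neither motif. The windows of CCND3, CCNE1, CDKN2A and CDKN1B held no E-box. The E2F site TTTGGCGC, also searched on both strands, matched no window of the 6 genes, against 0.652% of all windows. These are letter matches only.

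In MEL290, 3 of the 9 genes that could be tested were called between A3B OE and NC, against 17.8% of all 11611 genes tested. CDK2 and CDKN2A rose and CDK6 fell, where 10.3% of all genes were called higher and 7.49% lower. Without the filter on low values none of the 3 was called (adjusted p from 0.0898 to 0.097), nor was APOBEC3B itself (adjusted p = 0.0527), and with that filter dropped but genes at 0 in every library left out, a setting chosen after seeing the data, CDK2 (adjusted p = 0.0461) and APOBEC3B (adjusted p = 0.0317) were and CDK6 (adjusted p = 0.051) and CDKN2A (adjusted p = 0.062) were not. The median log2 fold change was 0.13 over the 9 genes and 0.00 over all genes. The libraries of A3B OE and NC did not overlap for 8 of the 9 genes, 4 higher and 4 lower, where this held for 61.3% of all genes tested, and the difference between these shares was not tested. The unadjusted limma p was under 0.05 for 7 of the 9 genes in MEL290, against 3848 of all 11611 genes. In 92.1 it was under 0.05 for 0 of the 9 genes, against 336 of all 11605 genes. None of the 9 was called between shA3B and shCtrl with limma, and 0.00862% of all genes were called, APOBEC3B alone. There the libraries did not overlap for 2 of the 9 genes, against 28.6% of all genes, namely CCND3 and CDKN1B, both lower in shA3B.

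**Figure D1:**
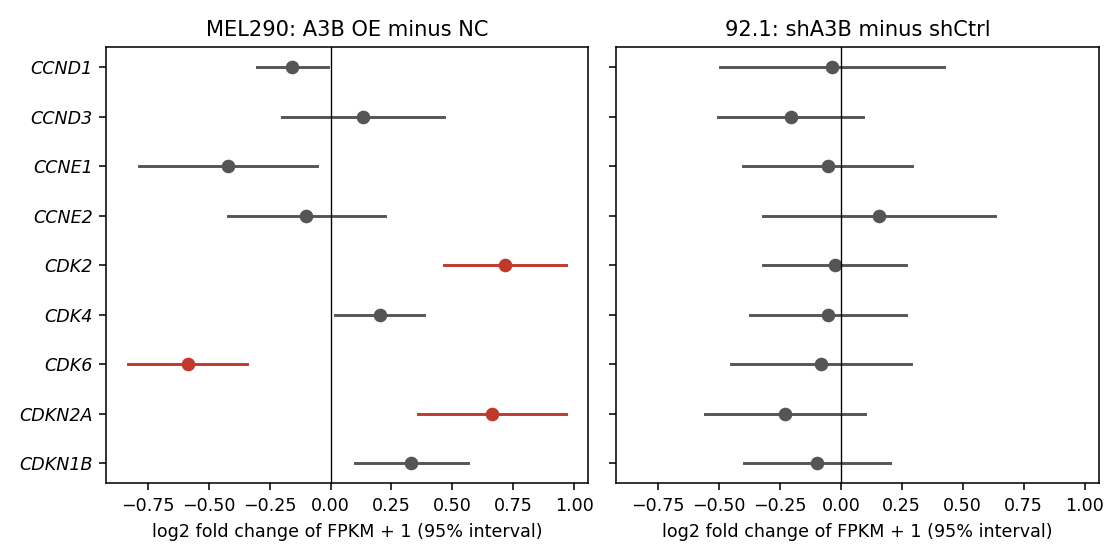
Differences of log2(FPKM + 1) for the 9 genes tested in each line, as points with 95% intervals from limma, in red where the adjusted p was under 0.05. In MEL290 CDK2 (0.72) and CDKN2A (0.66) lie to the right of 0 and CDK6 (-0.59) to the left, and in 92.1 every interval crosses 0.

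Among the D-type cyclins, CCND1 was the main transcript in both lines. CCND1 (ENSG00000110092.4, chr11:69641156-69654474, plus strand) stood at 276.0 and 274.0 FPKM in NC and at 250.9 and 242.6 in A3B OE. Both A3B OE libraries were below both NC libraries, by 0.16 on the log2 scale (-0.16, SE 0.06, limma adjusted p = 0.134), a difference that was not called, though it was under quantile normalization (adjusted p = 0.0378) and with a GC and length trend removed (adjusted p = 0.0328). In 92.1 CCND1 was 109.1 and 177.0 FPKM in shCtrl and 119.6 and 153.7 in shA3B (log2 fold change -0.04, SE 0.21), with the shA3B libraries lying between the shCtrl pair. The 95% interval of its change there ran from -0.50 to 0.42.

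CCND3 (ENSG00000112576.13, chr6:41934934-42050357, minus strand), a D cyclin prominent in lymphoid cells, was 53.1 and 59.3 FPKM in shCtrl, 50.6 and 46.5 in shA3B, 11.1 and 10.4 in NC and 13.3 and 10.6 in A3B OE. It was lower in both shA3B libraries than in both shCtrl libraries without being called (log2 fold change -0.21, SE 0.13, limma adjusted p = 0.999), and in MEL290 the second A3B OE library lay between the NC libraries (0.13, SE 0.14). CCND2 (ENSG00000118971.9, chr12:4269771-4305353, plus strand), the remaining D cyclin, was listed at 0 in 7 libraries and at 0.00673 FPKM in the second A3B OE library, where a single fragment was worth roughly 0.00491 to 0.00914 FPKM across libraries. CCND2 therefore took part in no test, and at this depth no level above a few fragments was detected.

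The 2 lines held different mixtures of D cyclins. CCND1 made up 71.1% ± 5.39 (SD, n = 2) of the summed D cyclin FPKM in shCtrl and 73.5% ± 4.59 in shA3B, and 96.2% ± 0.153 in NC and 95.4% ± 0.611 in A3B OE, with CCND3 making up the rest. Within each line the share differed by -0.85 percentage points (MEL290) and 2.43 points (92.1), with exact two-sided permutation p = 0.333 and p = 0.667. With 2 libraries against 2 that test cannot go below 0.333.

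In 92.1 the E-type cyclins had the lowest levels of the genes above 0. CCNE1 (ENSG00000105173.14, chr19:29811991-29824312, plus strand), a CDK2 partner, was 5.38 and 4.43 FPKM in NC and 3.17 and 3.64 in A3B OE. The A3B OE libraries were both below the NC libraries, with a log2 fold change of -0.42 (SE 0.15, limma adjusted p = 0.109), which was not called. In 92.1 CCNE1 was 5.79 and 6.01 FPKM in shCtrl and 5.91 and 5.39 in shA3B (-0.05, SE 0.16), and the groups overlapped. CCNE2 (ENSG00000175305.18, chr8:94879770-94896678, minus strand), its paralog, was 3.97 and 3.80 FPKM in NC and 3.39 and 3.74 in A3B OE (-0.10, SE 0.13), and 8.26 and 4.95 in shCtrl and 8.26 and 6.38 in shA3B (0.16, SE 0.22). The 92.1 replicates of CCNE2 differed from each other by more than the group means did. INTS8, on the other strand, shares 37% of the exonic bases of CCNE2, and whether the counting used strand is not stated. CCNE1 made up 55.7% ± 2.67 (SD, n = 2) of the E cyclin FPKM in NC and 48.8% ± 0.759 in A3B OE, a difference of -6.85 points (exact two-sided permutation p = 0.333, the lowest possible), and 48.0% ± 9.62 in shCtrl and 43.8% ± 2.89 in shA3B.

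Of the 3 kinases, 2 were called in MEL290, in opposite directions. CDK2 (ENSG00000123374.11, chr12:55966781-55972789, plus strand), the kinase that cyclin E activates, was 17.1 and 14.9 FPKM in NC and 27.5 and 26.4 in A3B OE. Both A3B OE libraries were above both NC libraries, by 0.72 on the log2 scale (SE 0.10, limma adjusted p = 0.00889). In 92.1 CDK2 was 400.6 and 469.9 FPKM in shCtrl and 426.9 and 425.7 in shA3B (-0.03, SE 0.13), with the shA3B libraries inside the shCtrl range. Without A3B OE replicate 1, the MEL290 increase was 0.69 with an adjusted p of 0.0526, and no gene of the 10 was called.

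CDK6 (ENSG00000105810.10, chr7:92604921-92836573, minus strand), a partner of the D cyclins, was 22.2 and 22.7 FPKM in NC and 13.8 and 15.5 in A3B OE. It fell by 0.59 on the log2 scale (SE 0.10, limma adjusted p = 0.014), with no overlap of the groups, and without A3B OE replicate 1 the change was -0.51 with an adjusted p of 0.061. In 92.1 CDK6 was 15.1 and 11.9 FPKM in shCtrl and 14.0 and 11.4 in shA3B (-0.08, SE 0.17), with overlapping groups.

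CDK4 (ENSG00000135446.17, chr12:57747727-57756013, minus strand), the other D cyclin partner, was 70.7 and 70.1 FPKM in NC and 84.4 and 77.9 in A3B OE. Both A3B OE libraries were higher, with a log2 fold change of 0.20 (SE 0.08, limma adjusted p = 0.122) that was not called. In 92.1 CDK4 was 201.4 and 202.4 FPKM in shCtrl and 220.0 and 171.9 in shA3B (-0.05, SE 0.14), the shA3B libraries lying on either side of the controls. TSPAN31, a tetraspanin gene on the opposite strand chosen here for its overlap, shares 44.2% of the exonic bases of CDK4. It was called lower in MEL290, with 21.6 and 19.4 FPKM in NC and 14.2 and 11.8 in A3B OE (log2 fold change -0.62, limma adjusted p = 0.022), and its part in the CDK4 value was not tested.

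CDK4 made up most of the CDK4 and CDK6 transcript in every library. Its share was 75.8% ± 0.378 (SD, n = 2) in NC and 84.7% ± 1.77 in A3B OE, 8.87 percentage points higher, and the libraries did not overlap (exact two-sided permutation p = 0.333, the lowest possible). In shCtrl the share was 93.7% ± 0.997 and in shA3B 93.9% ± 0.153, 0.16 points apart.

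Of the inhibitors, CDKN2A was called in MEL290 and CDKN1B was not. CDKN2A (ENSG00000147889.18, chr9:21967752-21995301, minus strand) was 4.96 and 4.83 FPKM in NC and 8.81 and 7.86 in A3B OE. Both A3B OE libraries were above both NC libraries, by 0.66 on the log2 scale (SE 0.12, limma adjusted p = 0.0185). The call was lost without A3B OE replicate 1 (0.59, adjusted p = 0.094) and without A3B OE replicate 2 (0.74, adjusted p = 0.0651). In 92.1 CDKN2A was 76.9 and 84.9 FPKM in shCtrl and 77.4 and 61.2 in shA3B, the largest difference of the 9 genes in that line at -0.23 (SE 0.15, limma adjusted p = 0.999), with overlapping groups. CDKN2B-AS1, a long noncoding RNA gene on the opposite strand, shares 15.3% of the exonic bases of CDKN2A. Its part in the CDKN2A value was not tested. CDKN1B (ENSG00000111276.12, chr12:12685498-12722369, plus strand) was 21.2 and 22.8 FPKM in NC and 26.7 and 29.3 in A3B OE (0.33, SE 0.10, limma adjusted p = 0.0636), and 23.9 and 22.9 in shCtrl and 22.5 and 21.1 in shA3B (-0.10, SE 0.14). Its libraries did not overlap in either line, higher in A3B OE and lower in shA3B, and neither difference was called. Libraries did not overlap for 61.3% of all genes in MEL290 and 28.6% in 92.1, and genes that did so in both lines were not counted.

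When the effect of shA3B in 92.1 was subtracted from the effect of A3B OE in MEL290 in a fit over all 8 libraries, CDK2 and CDKN2A were called, against 4.4% of 12697 genes. The difference was 0.74 for CDK2 (SE 0.15, 95% interval 0.40 to 1.08, limma adjusted p = 0.0343) and 0.89 for CDKN2A (SE 0.18, interval 0.47 to 1.32, adjusted p = 0.0387). For CDK6 it was -0.51 (SE 0.21, adjusted p = 0.218) and for CDKN1B 0.43 (SE 0.14, adjusted p = 0.137), neither of them called. Leaving out 1 library in turn, CDK2 was called only without shCtrl replicate 1 (adjusted p = 0.0435) and CDKN2A only without shA3B replicate 1 (adjusted p = 0.0397). Without any 1 of the other libraries neither was called, and the adjusted p reached 0.132 and 0.146 without A3B OE replicate 1. With a replicate block the adjusted p-values were 0.0636 and 0.0879. With each line's effect taken as the A3B-high minus the A3B-low group, so that shA3B was subtracted from shCtrl in 92.1, the difference between lines was 0.69 for CDK2 (adjusted p = 0.0378) and 0.43 for CDKN2A (adjusted p = 0.231).

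The control libraries of the 2 lines differed far more than the groups within a line. Between NC and shCtrl, 7 of the 9 genes were called, against 74.9% of 12697 genes, so that the share is near the background. The vector that NC cells carry is not stated, so line and vector cannot be told apart. These groups are also the controls of the comparisons above. CDK2 was lower in MEL290 by 4.68 on the log2 scale (-4.68, SE 0.11), CDKN2A by 3.80 (-3.80, SE 0.13), CCND3 by 2.28 (-2.28, SE 0.13) and CDK4 by 1.51 (-1.51, SE 0.12). CCND1 was higher by 0.98 (SE 0.21) and CDK6 by 0.70 (SE 0.15). CCNE2 was lower (-0.60, SE 0.21, limma adjusted p = 0.0287), a call lost without shCtrl replicate 1 (-0.28, adjusted p = 0.183) and without NC replicate 1 (adjusted p = 0.0783) or NC replicate 2 (adjusted p = 0.0996). CCNE1 (-0.23, SE 0.13) and CDKN1B (-0.08, SE 0.10) were not called, the interval of the latter running from -0.31 to 0.15. In shCtrl the order of mean levels was CDK2, CDK4, CCND1, CDKN2A, CCND3, CDKN1B, CDK6, CCNE2 and CCNE1, and in NC it was CCND1, CDK4, CDK6, CDKN1B, CDK2, CCND3, CCNE1, CDKN2A and CCNE2. CDK6 and CDKN1B in NC, CCNE1 and CDKN2A in NC, and CCNE1 and CCNE2 in shCtrl were neighbours in that order whose libraries overlapped.

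CDK2 and PMEL both stood higher in 92.1 than in MEL290, where 74.9% of 12697 genes were called between the controls. Of the nearest 5 tested genes on each side of CDK2, 2 were called higher and 2 lower in NC than in shCtrl, with PMEL among the lower. PMEL, the melanosome matrix gene that lies head to head with CDK2 and was chosen here after its values were seen, stood at 3777 to 4587 FPKM in 92.1 and at 0.836 to 1.31 in MEL290. The annotated canonical starts of PMEL and CDK2 are 739 bases apart, 1 of 19 PMEL transcripts reaches into CDK2, and it shares 89 bases, 2.29% of the CDK2 exonic bases. ENSG00000258554, a long noncoding RNA gene also on the strand opposite CDK2, shares 565 bases, 14.5% of those exonic bases. Its part in the CDK2 value was not tested. The part of PMEL reads in the CDK2 level of 92.1 was not tested. Within MEL290, where PMEL was near 1 FPKM and was not called (0.19, SE 0.16, limma adjusted p = 0.465), CDK2 rose.

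The nearest 5 tested genes on each side of CDK2, CDK6 and CDKN2A were read in MEL290 beside them. The 10 neighbours of CDK2 had a median log2 fold change of -0.02, with 1 called lower and none called higher, those of CDK6 a median of -0.12 with none called, and those of CDKN2A a median of -0.21 with 1 called higher and 1 called lower, the latter being IFNA1, an interferon gene named after its values were seen (-1.01, limma adjusted p = 0.0144). CDKN2B, the p15INK4b gene beside CDKN2A, was called higher, as CDKN2A was (0.55, limma adjusted p = 0.0386), while MTAP, on its other side, was at -0.01 (adjusted p = 0.936).

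The other CDK inhibitors moved in both directions in MEL290. CDKN1C, the p57 gene, was at 0 to 0.197 FPKM and was not tested. All 4 that could be tested were called between A3B OE and NC, 1 lower and 3 higher, where 7.49% of all genes were called lower and 10.3% higher. The list was chosen with earlier results of these data known, so these shares do not test it. CDKN1A, which encodes the p53-induced inhibitor p21, was 371.0 and 390.8 FPKM in NC and 194.2 and 184.6 in A3B OE, and fell by 1.00 on the log2 scale (SE 0.07, limma adjusted p = 0.00156). CDKN2C, which encodes p18INK4c, rose from 16.0 and 14.7 FPKM to 28.3 and 26.8 (0.81, SE 0.10, adjusted p = 0.00521). CDKN2D, the p19INK4d gene, rose from 4.74 and 4.58 FPKM to 7.96 and 6.74 (0.56, adjusted p = 0.0373), and CDKN2B from 9.19 and 8.81 to 12.2 and 15.1. Leaving out either A3B OE library lost the calls of CDKN2B and CDKN2D (adjusted p from 0.0535 to 0.158), and leaving out NC replicate 2 lost that of CDKN2D (adjusted p = 0.0601), while CDKN1A and CDKN2C kept theirs in all 4 such fits. The call of CDKN2B was also lost without a variance trend (adjusted p = 0.0501), and with all 8 libraries in 1 fit those of CDKN2B (adjusted p = 0.159) and CDKN2D (adjusted p = 0.0824) were.

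Among 13 genes for activation and turnover of G1 cyclin-CDK complexes, 2 were called in MEL290, both higher, which is about the 17.8% of all genes that were called, and the list's median log2 fold change was 0.03. CKS1B, the cofactor of SKP2 in p27 degradation, rose from 36.0 and 34.6 FPKM to 71.9 and 60.2 (0.88, SE 0.10, limma adjusted p = 0.00502). MNAT1, the assembly factor of the CDK-activating kinase, rose from 68.5 and 70.8 FPKM to 137.5 and 110.8 (0.82, SE 0.11, adjusted p = 0.00727). CDK7 and CCNH, the kinase and cyclin of the same complex, were not called (-0.10 and -0.25). Of 9 RB family and E2F genes tested, only RBL1, which encodes p107, was called, no more often than the 17.8% of all genes, rising from 2.43 and 2.52 FPKM to 4.16 and 4.98 (0.68, adjusted p = 0.0265), a call lost without A3B OE replicate 1 (adjusted p = 0.0691) or A3B OE replicate 2 (adjusted p = 0.129). RB1 was at 0.19 (adjusted p = 0.227) and E2F1 at 0.42 (adjusted p = 0.057).

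The cyclins and kinase of S, G2 and M phase were called higher in all 4 cases, where 10.3% of all genes were. This list, too, was chosen with earlier results of these data known, so its share is not a test. CCNA2 rose from 20.5 and 17.7 FPKM to 41.7 and 40.0 (1.06, SE 0.10, limma adjusted p = 0.00298), CCNB1 by 1.03 (adjusted p = 0.00181) and CCNB2 by 1.03 (adjusted p = 0.00261). CDK1 rose from 21.4 and 24.3 FPKM to 36.0 and 39.9 (0.71, SE 0.10, adjusted p = 0.0094), a call lost without A3B OE replicate 2 (adjusted p = 0.0545). The G1 cyclins in the same libraries were at -0.16 (CCND1), 0.13 (CCND3), -0.42 (CCNE1) and -0.10 (CCNE2), none of them called. Without the filter on low values every called gene of these 4 lists lost its call (adjusted p from 0.0565 to 0.192). With genes at 0 in every library left out of that fit, MNAT1 (adjusted p = 0.0567), RBL1 (0.0767), CDK1 (0.051), CDKN2B (0.109) and CDKN2D (0.0959) still did. In 92.1 no gene of these 4 lists was called between shA3B and shCtrl with limma.

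**Figure D2:**
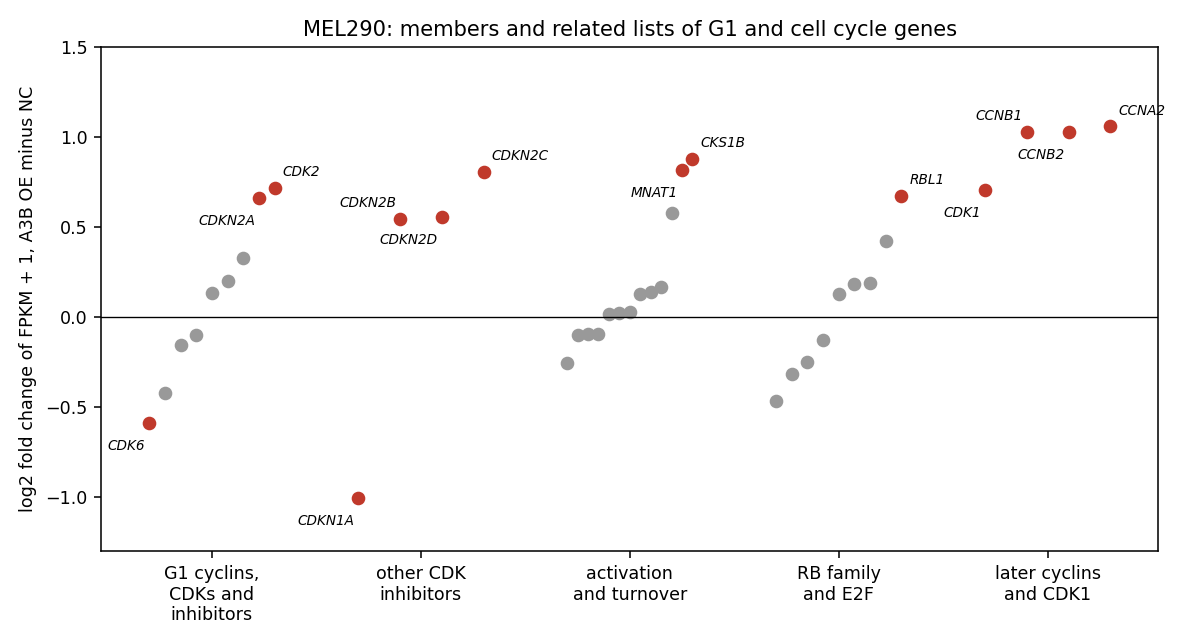
Differences of log2(FPKM + 1) between A3B OE and NC in MEL290 for the tested members and 4 related gene lists, each point a gene, red and named where the adjusted p was under 0.05. CDKN1A, which fell by 1.00, lies lowest and the later cyclins CCNA2, CCNB1 and CCNB2 are highest, at 1.03 to 1.06.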

How the data were processed

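RNA-seq of 8 libraries was used as deposited, 1 FPKM table per library. Per the study's methods and the labels, the authors prepared libraries with the NEBNext Ultra kit, aligned paired reads to GRCh38 with STAR and computed FPKM with Cufflinks; tool versions and the use of strand are not given in the sources used here. Groups came from the sample titles. Log2(FPKM + 1) was tested with limma 3.58.1 (R 4.3.3, moderated variances with a trend) after a filter of 1 FPKM in at least 2 libraries of the fit, each line alone, and over all 8 libraries for differences between lines. Shares were compared with exact permutation tests. The scripts were tested on simulated data. FPKM keep no counts, so no counting interval could be given. Depth was taken as the peak of the estimates from the low values of single genes. Of the genes used, 17.5% to 29.2% lay within 5% of that peak, so the depth is rough.

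The 10 genes, the related lists and the tests were chosen with earlier results of these data known. Named beside the 10 genes were APOBEC3B, called members of the lists (at most 4 per list and comparison, by size), and neighbours by count and median; other genes were chosen after their values were seen. Positions come from GENCODE 44 (GRCh38), which matched 19033 of 19952 symbols, and motifs from RefSeq windows. No pairing was assumed, as the labels state none. Samples with the same replicate number deviated together only weakly (correlation 0.193 in 92.1 and -0.0295 in MEL290), which does not settle whether they are paired. Alternatives were other scalings, filters, pseudocounts, a GC and length trend, a replicate block, a minimum fold change and leaving out each library.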

Additional observations from a re-analysis of the deposited data

Results flagged for a closer look

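The effect of A3B OE in MEL290 and of shA3B in 92.1 differed for CDK2 by 0.74 and for CDKN2A by 0.89 on the log2 scale (limma adjusted p = 0.0343 and 0.0387 in the fit over all 8 libraries), 2 of the 9 genes tested. In MEL290 both rose, in 2 of 2 A3B OE libraries, and in 92.1 neither was called. The first manipulation raises APOBEC3B and the second lowers it, so the subtraction compares opposite perturbations in different lines, and the line and the manipulation cannot be told apart.
Each of these calls held in 1 of the 8 fits that left out a library, and neither held with a replicate block (adjusted p = 0.0636 and 0.0879) or without a filter (0.0889 and 0.108).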

How the results depend on the processing

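The labels do not say whether the same replicate number in both groups marks paired libraries. The weak correlation of their deviations did not settle it. With a replicate block, CDK2, CDK6 and CDKN2A were still called in MEL290, CDKN2B and CDKN2D were lost (adjusted p = 0.0599 and 0.0596), the calls over all genes went from 1 to 37 in 92.1 and from 559 to 223 for the difference between lines, and the members called in that difference went from 2 to 0. In MEL290, 2065 genes and 3 members were called. Without a filter these were 2 and 0; that fit holds genes at 0 in every library, which have zero variance. Leaving those genes out, an alternative chosen after seeing the data, gave 915 and 1. A log2 fold change of at least 1 gave 314 and 0, and leaving out a library gave 809 to 1979 and 0 to 3. CCND1 was called lower under quantile normalization (adjusted p = 0.0378) and with the GC and length trend removed (adjusted p = 0.0328). Without a library CCND3 ran from -0.0211 to 0.287.

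In 92.1, 1 gene was called, 2 without a trend, 0 in both fits without a filter and 2 to 9 when a library was left out; 0 members were called in every setting. CCND1 turned to 0.0142 and CDK2 to 4e-04 under quantile normalization. Without a library, CCND1 ran from -0.382 to 0.310, CCNE1 from -0.111 to 0.0028, CCNE2 from -0.163 to 0.475, CDK2 from -0.140 to 0.0895, CDK4 from -0.231 to 0.123 and CDK6 from -0.239 to 0.0783. For the difference between lines, all genes called were 328 with 1 FPKM in every library, 882 with the GC trend removed, 287 with a log2 fold change of at least 1 and 36 to 286 without a library. Members called were 1 without a trend or as A3B-high minus A3B-low, 0 in both fits without a filter and with a log2 fold change of at least 1, and 0 to 1 without a library. As A3B-high minus A3B-low, CCND3 was at -0.0736 and CCNE2 at 0.057. Without a library, CCND1 ran from -0.466 to 0.226 and CCNE2 from -0.575 to 0.0638. Between lines, a log2 fold change of at least 1 left 5008 of 9509 genes and 4 of 7 members, and CDKN1B was at 0.0059 with the summed FPKM made equal in every library. The cause of these changes was not tested beyond the zero variances named. Fits that leave an arm with 1 library assume that it varies like the others.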
